A study of Mus musculus with 65 samples.

Results

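The step from 6 to 16 months of age was examined in the spinal cord of mice on caloric restriction (CR). All mice of these 2 ages whose labels gave the CR diet were taken, which were 18 of the 65 mice of the series. The 8 mice of 6 months (3 males and 5 females) were 174 to 194 days old, and the 10 mice of 16 months (5 males and 5 females) were 472 to 499 days old. All were C57BL/6 mice, housed singly and placed on a reduced ration in young adulthood, so that age and time on the diet cannot be told apart. Where the diets are compared, 10 mice of 6 months and 10 of 16 months fed ad libitum (AL) were used, with 5 males and 5 females at each age. These were 169 to 194 and 476 to 499 days old. CR mice of 24 months, 3 males and 4 females of 673 to 743 days, are cited for 1 gene. The fits took in all 65 mice, 17 to 743 days old, which included juvenile AL mice and mice of 24 months on either diet. Each mouse was hybridized to 1 filter, the B membrane of a mouse cDNA array with 8448 spotted features. The values were Z scores, in which 0 is the mean of all features of an array and 1 is their SD.

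CR, a cut in food intake without malnutrition, lengthens life in many laboratory animals and is used as a probe of how diet acts on aging tissue. The spinal cord holds motor neurons, interneurons and long myelinated tracts, with astrocytes, oligodendrocytes and microglia around them. Between young adulthood and middle age its growth is complete, and the nerve and glial cells present are for the most part long lived. Since a whole cord was used, fewer cells of a type and less RNA per cell cannot be told apart.

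Of the 18 arrays, 2 stood apart from the rest, and both were mice of 6 months. Array 32, CR female replicate 3, correlated with the mean of the other CR arrays at r = 0.905 across features, and array 31, CR male replicate 2, at 0.931. The other 16 arrays lay between 0.970 and 0.992. The median feature deviated from its group median by 0.225 and 0.185 on these 2 arrays, and by 0.045 to 0.105 on the others. Array 50, a CR male of 6 months, lay among the others by both measures (0.991 and 0.05). Its weight was low when noisier arrays were given less weight, 0.143 against 0.126 on array 32 and 0.219 on array 31. With arrays 31 and 32 left out, it held the lowest young value for several features named below, such as 2900052L18Rik (-1.11) and Rplp0 (-0.31). Arrays 22 to 43 and 66 to 67 formed a second run, which the labels do not name. It held 2 of the 8 mice of 6 months, which were arrays 31 and 32, and 3 of the 10 mice of 16 months. Results are therefore given with all mice and, for the counts, the lists and most named features, without arrays 31 and 32 or in a fit with the run as a covariate. In that fit arrays 31, 32 and 33 were left out (array 33 was an AL male of 6 months).

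No feature passed the test between 6 and 16 months in CR mice, with 0 of 8448 called (0%) at a Benjamini-Hochberg adjusted p of 0.05 in limma. The smallest adjusted p was 0.291, at a feature without a gene name (feature 11333), whose difference was 0.282 (SE 0.0624). At an unadjusted p under 0.05 there were 583 features (6.90%), of which 375 were higher at 16 months (4.44%) and 208 were lower (2.46%). Without arrays 31 and 32 there were 87 (1.03%), of which 27 were higher (0.320%) and 60 lower (0.710%), and 42 of them were among the 583, which is 7.2% of the larger set and 48.3% of the smaller. In the fit with the run there were 293 (3.47%), 147 higher (1.74%) and 146 lower (1.73%), and 79 of them were shared with the 583. Again 0 features passed the adjusted threshold in both fits. No feature had groups that did not overlap, with 0 of 8448 (0%) in either direction, also without the 2 arrays. Leaving out each of the 18 mice in turn gave 0 called features in 17 fits and 9 without CR male replicate 1 of 6 months, after which array 31 was 1 of 2 young males. The selection rule of the study, a mean Z above 0, a z-ratio of at least 1.5 and an unadjusted p under 0.05, took 35 higher (0.414%) and 25 lower features (0.296%). It took 6 higher (0.0710%) and 40 lower (0.473%) without arrays 31 and 32.

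Most features were bounded to within 0.5 Z, which is wider than the AL differences called below (0.301 for Ganab and 0.267 for Tbc1d8). Around the group means the typical residual SD was 0.149 Z, and the 95% interval of a typical feature's difference reached 0.143 Z to each side of it. For 7975 features (94.4%) the whole interval lay within 0.5 Z of no difference, and for 5500 (65.1%) within 0.25 Z. In the fit with the run, 8240 features (97.5%) lay within 0.5 Z and 7429 (87.9%) within 0.25 Z. The intervals of the other features reached past these bounds.

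The 2 outlying arrays moved with the unadjusted counts. Among the 375 features that were higher at 16 months, arrays 31 and 32 gave the 2 lowest values of the 8 young mice in 314 (83.7%), against 1996 of all features (23.6%). Among the 208 lower features they gave the 2 highest values in 136 (65.4%), against 2052 of all features (24.3%). The median difference of the 375 went from 0.166 with all mice to 0.0498 without the 2 arrays, and that of the 208 from -0.138 to -0.0736. The 583 were chosen on the first of these values, so the second is a description.

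The 10 named features with the smallest p in the upward direction are described first, although none passed the test. Their adjusted p lay between 0.505 and 0.507 in limma. In all of them the lowest mouse of 6 months was array 31 or 32, and in 6 of them both arrays lay below the other 6 young mice. With all mice the differences ran from 0.152 to 0.441, and without the 2 arrays from 0.073 to 0.167. An unadjusted p under 0.05 was kept by 4 of the 10 without the 2 arrays and by 6 of the 10 in the fit with the run.

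Ganab encodes the catalytic subunit of glucosidase II, which trims glycoproteins in the endoplasmic reticulum. Its Z score ran from -0.69 to -0.25 at 6 months, with a median of -0.365, and from -0.29 to 0.01 at 16 months, with a median of -0.195. The groups overlapped, but all 10 older mice lay above the mean of the younger ones. The difference was 0.205 (SE 0.0546, adjusted p = 0.505 in limma), 0.156 without arrays 31 and 32, and 0.173 in the fit with the run. Of the 10 features, Ganab was the one whose difference depended least on the outlying arrays in the fit with the run. At 24 months CR mice had a mean of -0.0814 ± 0.0636 (SD, n = 7). Trim37, a ubiquitin ligase of the tripartite motif family, ran from -0.58 to -0.25 at 6 months (median -0.34) and from -0.34 to -0.04 at 16 months (median -0.2). Its difference was 0.173 (SE 0.0474), with 0.116 and 0.126 in the other 2 fits.

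Selenof, a selenoprotein of the endoplasmic reticulum that binds a glycoprotein folding sensor, ran from -1.42 to -0.61 at 6 months (median -0.755) and from -0.78 to -0.38 at 16 months (median -0.605). Its difference was 0.263 (SE 0.0741), and 0.134 without the 2 arrays. Slc6a8, the creatine transporter, ran from -0.98 to -0.21 at 6 months (median -0.33) and from -0.34 to -0.16 at 16 months (median -0.23). Its lowest values belonged to arrays 31 (-0.98) and 32 (-0.57), and its difference went from 0.226 (SE 0.0589) to 0.0965 without them. Spns1, a transporter of the lysosomal membrane, differed by 0.231 with all mice and by 0.073 without the 2 arrays. Among components of the ribosome, Rplp0 of the large-subunit stalk differed by 0.233 and 0.0898, and Rpl22l1, a relative of Rpl22, by 0.152 and 0.0828. In the fit with the run the differences were 0.157 for Selenof, 0.0972 for Slc6a8, 0.0791 for Spns1, 0.0833 for Rplp0 and 0.0742 for Rpl22l1. The values of Rplp0 were -0.66 and -0.64 on arrays 31 and 32 and lay between -0.31 and 0.01 in the other 6 young mice.

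For the remaining 3 features no role is given here. The transcript 2900052L18Rik had the largest difference, 0.441 (SE 0.115), and it rested on array 31 at -2.54, the next lowest mouse being at -1.11. Without arrays 31 and 32 it was 0.125. The difference of BC031181 was 0.194 with all mice and 0.109 without them. Gstcd, named for a glutathione S-transferase-like domain, ran from -0.33 to 0.19 at 6 months (median 0.055) and from 0.08 to 0.43 at 16 months (median 0.23), with differences of 0.243, 0.167 and 0.118 in the 3 fits.

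**Figure D1:**
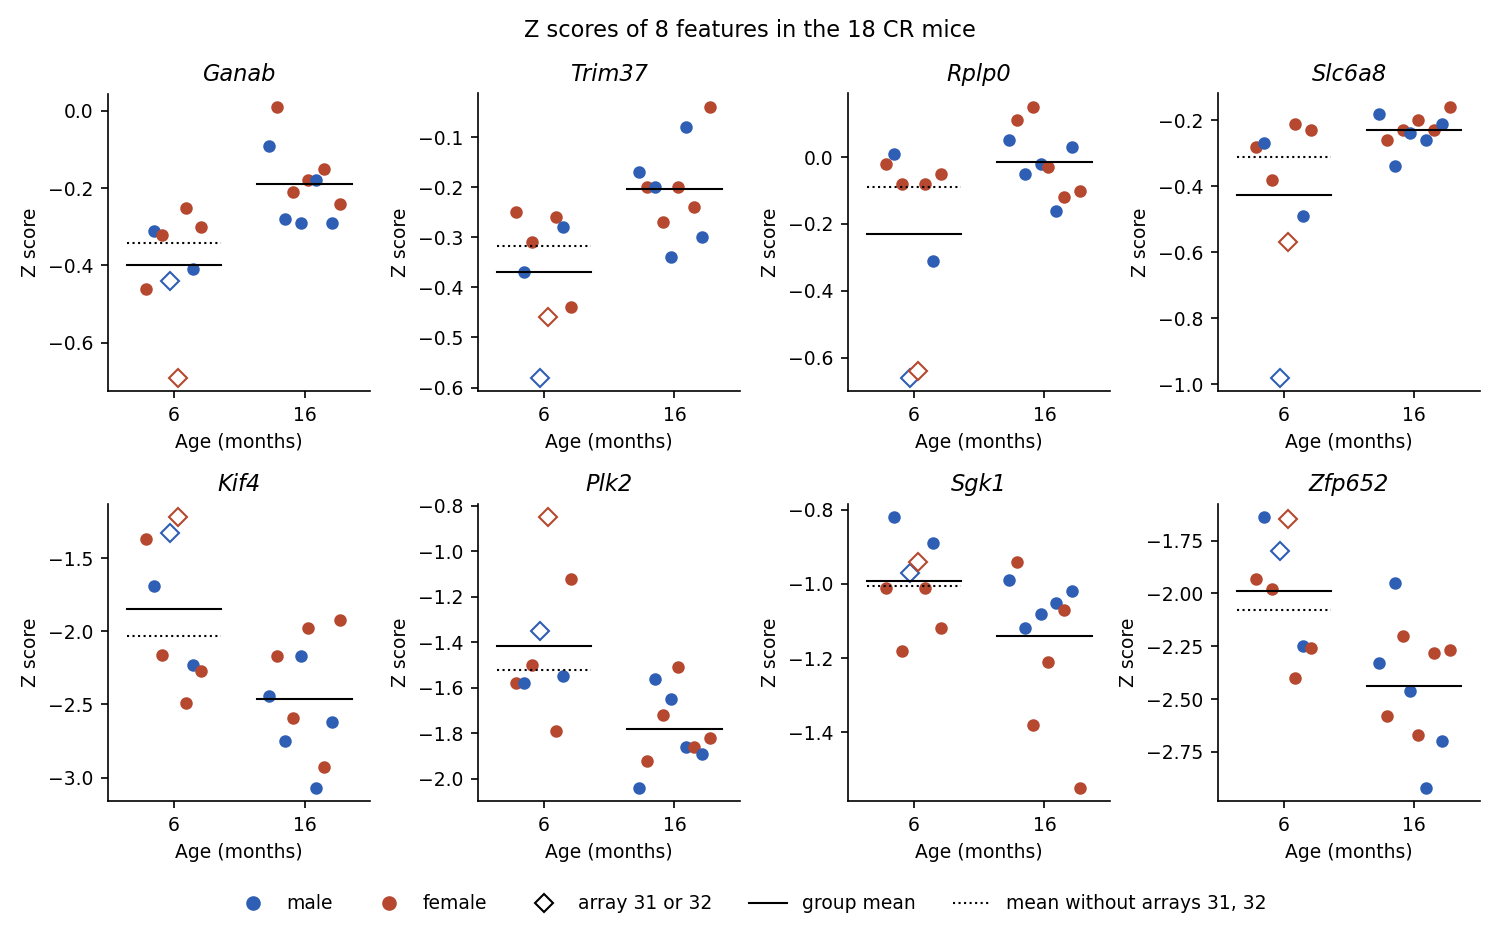
Z score (y axis) of 8 features in each of the 18 CR mice by age in months (x axis). Points are mice in order of array number, coloured by sex, open diamonds are arrays 31 and 32, solid lines are group means and dotted lines the 6-month mean without those arrays. For Rplp0 the open diamonds lie at -0.66 and -0.64, below the other young mice, while for Ganab 1 of them, at -0.44, lies among the others.

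The 10 named features with the smallest p in the downward direction had adjusted p between 0.505 and 0.689 in limma. The highest young mouse was array 31 or 32 in 9 of them, and both arrays lay above the other 6 in 6. Differences ran from -0.119 to -0.911 with all mice and from -0.0735 to -0.448 without the 2 arrays, and 5 of the 10 had an unadjusted p under 0.05 without them.

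Kif4, Mybl2 and Stag3 have roles in dividing cells. Kif4, a chromosome-bound kinesin used in chromosome condensation and cytokinesis, ran from -2.49 to -1.22 at 6 months (median -1.93) and from -3.07 to -1.92 at 16 months (median -2.52). All 10 older mice lay below the mean of the younger ones. The difference was -0.638 (SE 0.168, adjusted p = 0.505 in limma), -0.448 without the 2 arrays and -0.52 in the fit with the run. Such Z scores lie far down the range of an array, so that Kif4 was measured at a faint feature. The same holds for Zfp652, Rab33b and Plk2 below, with means of -1.99, -1.99 and -1.415 in young CR mice. Mybl2, a transcription factor of the cell cycle, had a difference of -0.119 (SE 0.0396), and -0.094 and -0.097 in the other fits. Stag3, a cohesin subunit of meiosis, had a difference of -0.172 with all mice and -0.0738 without the 2 arrays.

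Kinases and regulators made up most of the remainder. Plk2, a polo-like kinase induced by synaptic activity and stress, ran from -1.79 to -0.85 at 6 months (median -1.53) and from -2.04 to -1.51 at 16 months (median -1.84). Its difference was -0.352 (SE 0.0958, adjusted p = 0.505 in limma), -0.252 without the 2 arrays and -0.285 in the fit with the run. The highest young value, -0.85, was that of array 32, and the next highest, -1.12, was that of another female. Zfp652, a zinc finger repressor of transcription, ran from -2.4 to -1.64 at 6 months (median -1.96) and from -2.92 to -1.95 at 16 months (median -2.4). Its differences of -0.466, -0.392 and -0.39 in the 3 fits moved little with the arrays. Hipk1, a nuclear kinase, differed by -0.151, -0.106 and -0.0983, and Grk5, which phosphorylates G protein-coupled receptors, by -0.156, -0.0913 and -0.0873.

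The last 3 features had other roles. Casq1, the calcium-binding calsequestrin of fast muscle, differed by -0.142 with all mice and by -0.0735 without the 2 arrays. Cct4, a subunit of the cytosolic chaperonin, differed by -0.12 and -0.0748. Rab33b, a small GTPase of the Golgi, had the largest difference, -0.911 (SE 0.303), with a wide spread. Its value was 0.2 on array 31 and between -3.04 and -2.09 in the 6 young mice other than arrays 31 and 32, and 1 older mouse stood at -5.1. Without the 2 arrays its difference was -0.377, with an unadjusted p of 0.212 in limma.

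**Figure D2:**
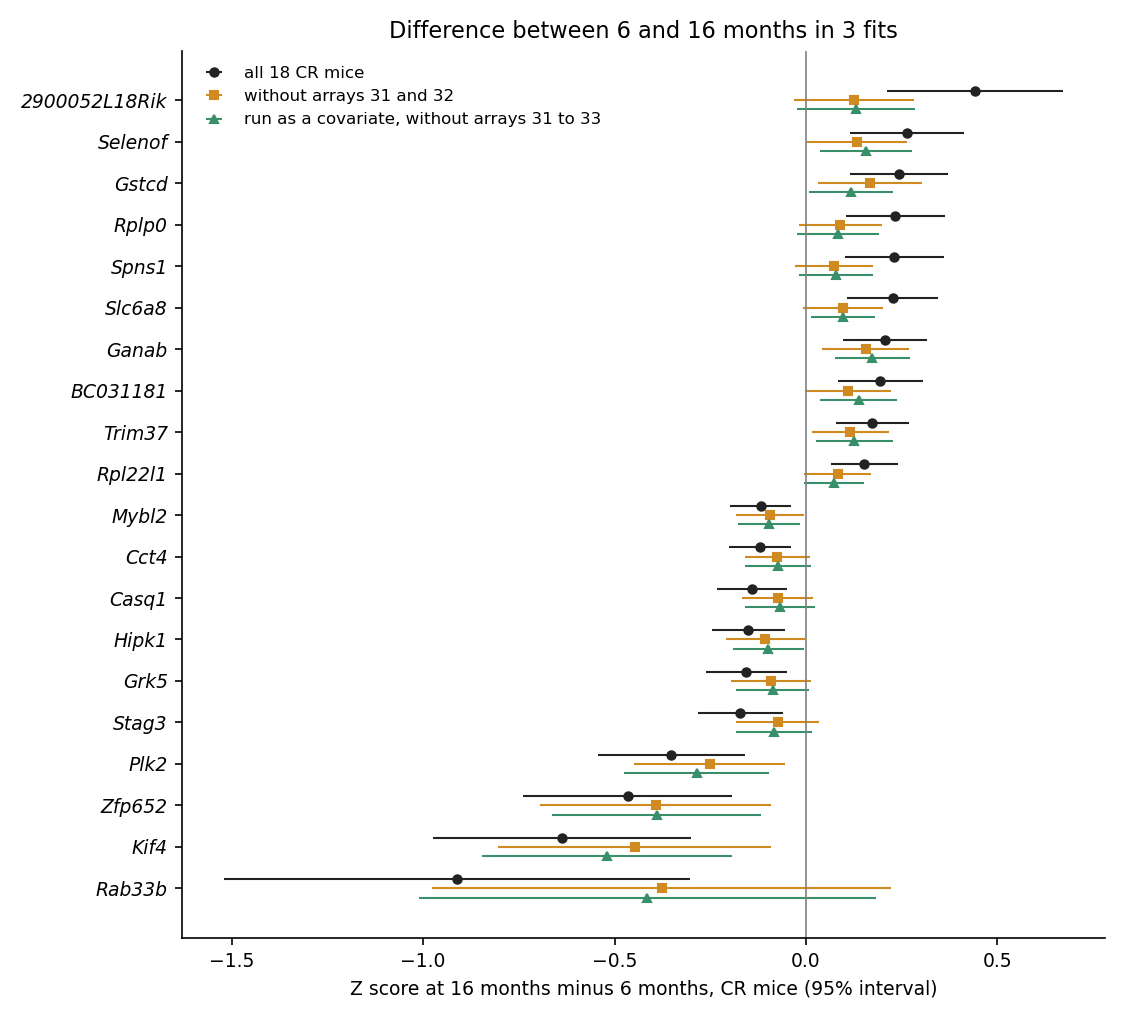
Difference in Z score between 16 and 6 months in CR mice (x axis, with its 95% interval) for the 20 named features (y axis) in 3 fits, shown as circles (all 18 mice), squares (without arrays 31 and 32) and triangles (run as a covariate, without arrays 31 to 33). Ganab lies at 0.205, 0.156 and 0.173 and 2900052L18Rik at 0.441, 0.125 and 0.131.

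Gene lists were described by how many features were higher or lower and by the median difference. Over all 8448 features 46.8% were higher at 16 months and 53.2% lower, with a median of -0.00633, and 48.1% and 51.9% without arrays 31 and 32, with a median of -0.00275. Of the 33 lists, 29 had at least 3 features. No member of any list passed the adjusted threshold. At an unadjusted p under 0.05, 4.44% of all features were higher and 2.46% lower with all mice. These shares were 0.320% and 0.710% without arrays 31 and 32, and 1.74% and 1.73% in the fit with the run. In 24 of the 29 lists the mouse of 6 months with the lowest mean over the list was array 31 or 32. With all mice 20 of the 29 medians were above 0, without the 2 arrays 8, and in the fit with the run 14.

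The proteins of the cytosolic ribosome, which translates mRNA, were the largest list together with the ubiquitin-proteasome system. Of its 98 features (54 genes) 88 were higher at 16 months and 10 lower, 25 of them higher at an unadjusted p under 0.05, and the median difference was 0.114. The mean of the list was 0.130 on array 32 and 0.228 on array 31, and lay between 0.443 and 0.559 in the other 6 young mice and between 0.445 and 0.609 in the older mice. Without the 2 arrays the groups therefore covered nearly the same range. Then 66 of the 98 were higher, 0 at an unadjusted p under 0.05, and the median was 0.0274. In the fit with the run 74 were higher, 3 of them at an unadjusted p under 0.05, and the median was 0.0252. Rpl7 had differences from 0.021 to 0.224 at its 4 features, the largest of which became 0.0765 without the 2 arrays. Rplp2 of the stalk had 0.122 and 0.186 at its features, and 0.0418 and -0.0193 without them. Ribosomal cDNAs have many processed copies in the genome, and their cross-hybridization was not tested.

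The subunits of oxidative phosphorylation, by which mitochondria make ATP, behaved likewise. Of 52 features (44 genes) 45 were higher and 7 lower, 9 of them higher at an unadjusted p under 0.05, with a median difference of 0.0777. The list mean was -0.011 on array 32 and 0.0848 on array 31, between 0.272 and 0.373 in the other young mice, and between 0.263 and 0.381 in the older ones. Without the 2 arrays 32 were higher, 0 at an unadjusted p under 0.05, and the median was 0.006. Cox5a of complex IV had a difference of 0.292 with all mice and 0.0458 without them, Ndufs7 of complex I 0.136 and 0.0585, and Atp5g2 of the ATP synthase 0.151 and 0.0335.

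In the lysosome list, 22 of 28 features (21 genes) were higher, 5 at an unadjusted p under 0.05, and the median was 0.0868. Without the 2 arrays 13 were higher, 0 at that threshold, and the median was -0.00075. Ctsd, a protease of the lysosome that is also abundant in microglia, had 2 features. At feature 12531 the young mice ran from -0.6 to 0.25 (median 0.05) and the older from 0.11 to 0.29 (median 0.235), with arrays 31 and 32 at -0.6 and -0.33. The difference was 0.267 (SE 0.102), and 0.0985 and 0.0972 in the other 2 fits. At feature 12575 it was 0.247 (SE 0.103), with 0.114 and 0.133. Lamp1 of the lysosomal membrane differed by 0.308 at a faint feature and by -0.084 at a bright one, and by 0.106 and -0.00775 without the 2 arrays. The ceramidase Asah1 differed by 0.087 and 0.043.

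**Figure D3:**
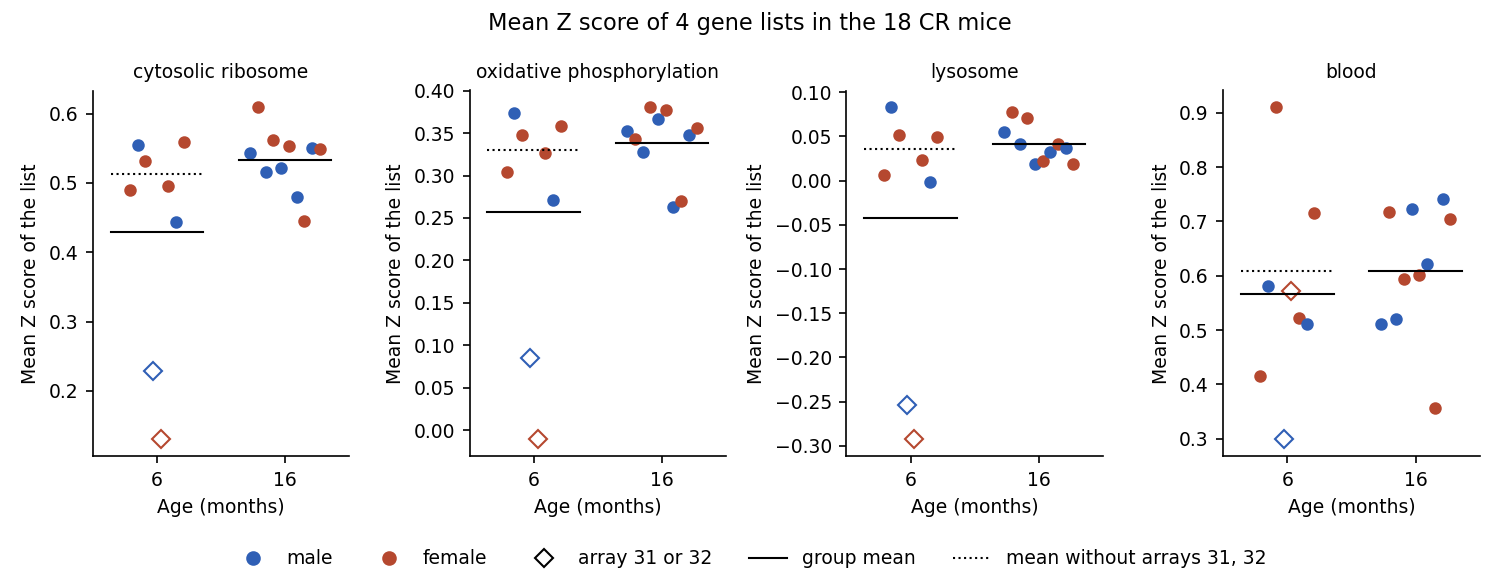
Mean Z score over the features of 4 gene lists (y axis) in each of the 18 CR mice by age in months (x axis), with arrays 31 and 32 as open diamonds, solid lines for group means and dotted lines for the 6-month mean without those arrays. For the cytosolic ribosome the open diamonds lie at 0.130 and 0.228, and the other 6 young mice lie between 0.443 and 0.559.

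Further metabolic lists were small. In fatty acid oxidation 6 of 10 features were higher with all mice and 3 of 10 without arrays 31 and 32, and the medians were 0.121 and -0.0233. Hadha, the alpha subunit of the mitochondrial trifunctional protein, ran from -0.76 to -0.23 at 6 months (median -0.4) and from -0.32 to -0.03 at 16 months (median -0.175). Its difference was 0.252 (SE 0.11, adjusted p = 0.711 in limma), 0.164 without the 2 arrays and 0.159 in the fit with the run. Acaa2, which carries out the last thiolysis of that pathway, differed by 0.257, and by 0.0828 without the 2 arrays. In antioxidant defence 15 of 26 features were higher with all mice, 12 without the 2 arrays and 11 in the fit with the run, with medians of 0.00967, -0.016 and -0.00106. Sod1, the cytosolic superoxide dismutase, differed by 0.317 with all mice and by 0.0803 without the 2 arrays.

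Glucocorticoid-responsive and clock genes follow stress hormones and the daily cycle. Of 9 features 4 were higher and 5 lower, with a median of -0.0153. At an unadjusted p under 0.05 there were 2 lower and 1 higher in each of the 3 fits, and no feature passed the adjusted threshold. Over all features the shares at that p were 6.90%, 1.03% and 3.47% in the 3 fits. The lower ones were Plk2, given above, and Sgk1, a kinase induced by glucocorticoids. Both had been put forward by earlier work on these same data, so that the count is a description. Sgk1 ran from -1.18 to -0.82 at 6 months (median -0.99) and from -1.55 to -0.94 at 16 months (median -1.08). Its difference was -0.168 (SE 0.0763, adjusted p = 0.711 in limma), -0.174 without the 2 arrays and -0.167 in the fit with the run. The young values of arrays 31 and 32, -0.97 and -0.94, lay among the others, and 2 of the 10 older mice lay above the mean of the younger ones. The higher feature with all mice was that of Nr3c1, the glucocorticoid receptor, with 0.178, and 0.055 without the 2 arrays. In the other 2 fits it was that of Arntl, a core activator of the circadian clock, with 0.123 and 0.127 against 0.095 with all mice. By the methods of the study, all mice were killed at 1 time of day.

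Markers of cell types were few on this filter. Nefl, a neurofilament of large axons, had means of 0.906 and 0.711 at its 2 features in young CR mice. Gja1, a gap junction protein of astrocytes, had 1.11. These were the brightest features of the neuronal and astrocyte lists in young CR mice, and the lists as a whole were lower. Over the CR mice of both ages, the mean level was 0.1 for the neuronal and 0.00611 for the astrocyte features. It was -0.0926 for the myelin features and -0.0951 for those of microglia and macrophages. Of 23 markers of oligodendrocytes and myelin 5 genes were measured, of 11 markers of motor neurons only Gfra1, and of 12 markers of adipose tissue none. Myelin markers had a median difference of 0.158 over 5 features, and 0.0165 without arrays 31 and 32. Neuronal markers had 0.107 over 9 features and -0.0225 without the 2 arrays. Uchl1, a ubiquitin hydrolase of neurons, differed by 0.26 with all mice and 0.0753 without them. Astrocyte markers had a median of 0.0813 over 7 features and 0.0528 without the 2 arrays.

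Among microglia and macrophage markers 6 of 10 features were higher, with a median of 0.109, and 7 of 10 without arrays 31 and 32, with a median of 0.0338. C1qa, the A chain of complement C1q, ran from -1.04 to -0.63 at 6 months (median -0.76) and from -0.8 to -0.51 at 16 months (median -0.645), a difference of 0.108 (SE 0.0668), with 0.0682 and 0.0772 in the other 2 fits. C1qb, another chain, had differences of -0.003 (SE 0.0585), 0.0348 and -0.023 in the 3 fits, and C1qc had -0.0253, -0.0105 and -0.0306. Blood markers, mostly hemoglobin alpha features, were higher at 19 of 21 features, with a median of 0.0593, and at 11 of 21 without the 2 arrays, with a median of 0.0165. The mean over this list ran from 0.299 to 0.910 in young mice and from 0.356 to 0.740 in older ones, so that it varied more within an age than between ages. Skeletal muscle markers had a median of 0.14 over 4 features and -0.0403 without the 2 arrays. The part of these cell types in other results was not tested.

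The 17 other lists with at least 3 features had medians from -0.0713, in the 3 features of oligodendrocyte progenitors, to 0.0437, in the 31 features of endoplasmic reticulum folding and N-glycosylation, and from -0.0585 to 0.016 without arrays 31 and 32. Several of these turned sign between fits. Of the 98 features of the ubiquitin-proteasome system 54 were higher with all mice, 45 without the 2 arrays and 55 in the fit with the run, with medians of 0.0118, -0.00462 and 0.00461. Of the 23 of Wnt and Notch signaling 14, 10 and 9 were higher, with medians of 0.00967, -0.0075 and -0.00344. Of the 25 of DNA repair and telomeres 10, 12 and 14 were higher, with medians of -0.022, -0.00025 and 0.00372. The helicase Wrn, lost in Werner syndrome, had a difference of 0.0353 (SE 0.0532) with all mice and -0.0235 without arrays 31 and 32. In the synaptic vesicle list Rab3b, a GTPase of regulated secretion, differed by -0.137, -0.171 and -0.161 in the 3 fits, and Ap2b1 of the clathrin adaptor by -0.1, -0.143 and -0.148. Both were the members at an unadjusted p under 0.05 without the 2 arrays, 2 of 14 features, against 1.03% of all features. The median of the list in that fit was -0.0269.

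**Figure D4:**
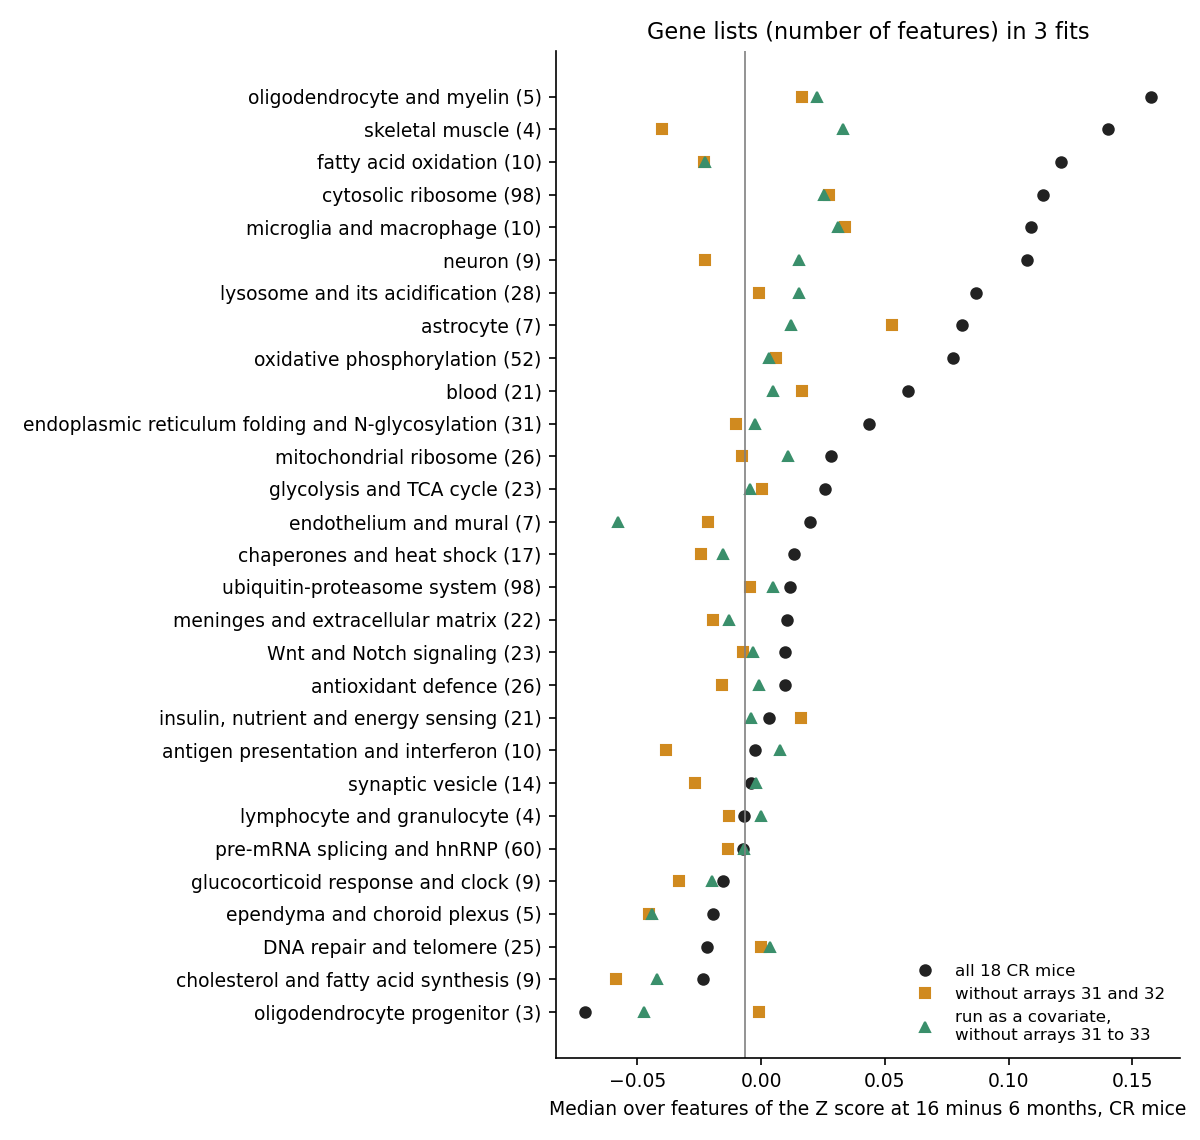
Median difference in Z score between 16 and 6 months in CR mice (x axis) for the 29 gene lists with at least 3 features (y axis, with the number of features), in 3 fits shown by circles, squares and triangles. The vertical line is the median of all features with all mice, -0.00633. The median of the cytosolic ribosome lies at 0.114 with all mice and at 0.0274 without arrays 31 and 32.

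Whether the step differed between diets was tested as the CR difference minus the AL difference, which share no mice. No feature passed, with 0 of 8448 called (0%) and a smallest adjusted p of 0.997 in limma, while at an unadjusted p under 0.05 there were 237 (2.81%). The corresponding counts were 177 (2.10%) without arrays 31 and 32 and 166 (1.96%) in the fit with the run. The 95% interval of a typical feature's difference between diets reached 0.195 Z to each side of it. The AL step itself had 2 called features (0.0237%), Ganab and Tbc1d8, and 1120 at an unadjusted p under 0.05 (13.3%). Array 33 bore on this count. Without arrays 31 to 33 the AL step had 6 called features (0.0710%), which were those of Ganab, Tbc1d8 and Hadha, both of Ctsd and Numa1 feature 12487, and 507 at an unadjusted p under 0.05 (6.00%). With the run added there were 7 (0.0829%), the same 6 and that of Asxl1, and 564 at an unadjusted p under 0.05 (6.68%). The differences in CR and AL mice were 0.205 and 0.301 for Ganab, with a difference between diets of -0.0957 (95% interval -0.245 to 0.0536). For Tbc1d8, a predicted activator of Rab GTPases, they were 0.152 and 0.267, with a difference between diets of -0.115 (-0.256 to 0.0261). Both intervals include 0, so that a step in CR mice as large as in AL mice and a smaller one are both possible.

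Genes that earlier work on these data had put forward were also compared between the diets. In CR and AL mice the differences were 0.252 and 0.457 for Hadha, 0.108 and 0.265 for C1qa, and for Ctsd 0.267 and 0.396 at feature 12531 beside 0.247 and 0.417 at feature 12575. The spindle protein Numa1 had 0.265 and 0.328 at feature 12487, 0.0903 and 0.137 at feature 11935, and -0.0393 and -0.042 at feature 15748, so the last had the opposite sign. With arrays 31 to 33 left out the AL differences were 0.293 for Hadha, 0.266 and 0.293 for Ctsd, 0.209 for C1qa and 0.288 for Numa1 feature 12487. All of these intervals of the difference between diets included 0 with all mice. Without arrays 31 and 32 the unadjusted p of that difference was 0.0285 and 0.0315 for Ctsd, 0.0413 for C1qa and 0.033 for Numa1 feature 12487 in limma. For Hadha it was 0.0693, and for Numa1 feature 11935 it was 0.378. Array 33, an AL mouse of 6 months, was still in that fit. With it also left out and the run as a covariate, the differences between diets were -0.168 and -0.179 for Ctsd, -0.14 for C1qa and -0.151 for Numa1 feature 12487. Their unadjusted p were then 0.0209 and 0.0378 for Ctsd, 0.0885 for C1qa and 0.0666 for that Numa1 feature in limma. For Hadha and Numa1 feature 11935 the differences were -0.129 and -0.013, with unadjusted p of 0.075 and 0.826 in limma. Over all features, 2.10% and 1.96% had an unadjusted p under 0.05 in these 2 fits. The genes were put forward from these same data, and a choice by the AL step would favour a smaller step in CR mice. Their p-values are therefore a description. Sema6a, a semaphorin of axon guidance, had differences of 0.0247 in CR and 0.145 in AL mice, and Glcci1, a transcript induced by glucocorticoids, -0.0747 and 0.032.

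The features with the smallest p for the difference between diets were Plk2 and Kif4, both measured at faint features. Plk2 differed by -0.352 in CR and 0.187 in AL mice, a difference between diets of -0.539 (95% interval -0.801 to -0.278, adjusted p = 0.997 in limma). Its AL values ran from -2.66 to -1.61 at 6 months (median -1.8) and from -1.92 to -1.56 at 16 months (median -1.73). Of the 4 groups the young CR mice had the highest median. Without arrays 31 and 32 the difference between diets was -0.439, and in the fit with the run -0.41. Kif4 had -0.638 and 0.183, a difference between diets of -0.821 (-1.28 to -0.362), -0.631 without the 2 arrays. Sgk1 had -0.168 and 0.062, a difference between diets of -0.23 (-0.439 to -0.022). Its AL median was -1.48 at 6 months and -1.41 at 16 months, against -0.99 and -1.08 in CR mice. Plk2 and Sgk1 were among the genes that earlier work on these same data had put forward. Their intervals are therefore a description.

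The next smallest p values belonged to Txndc17, a thioredoxin-like protein (0.174 in CR and -0.292 in AL mice), Wdr47, a WD-repeat protein of neuronal microtubules (-0.131 and 0.083), and Anxa7, a calcium-dependent membrane-binding annexin (-0.0937 and 0.146). Their adjusted p were all 0.997 in limma. Their differences between diets were 0.466, -0.214 and -0.24 with all mice, 0.417, -0.132 and -0.204 without arrays 31 and 32, and 0.304, -0.0968 and -0.139 in the fit with the run, which also leaves out array 33.

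**Figure D5:**
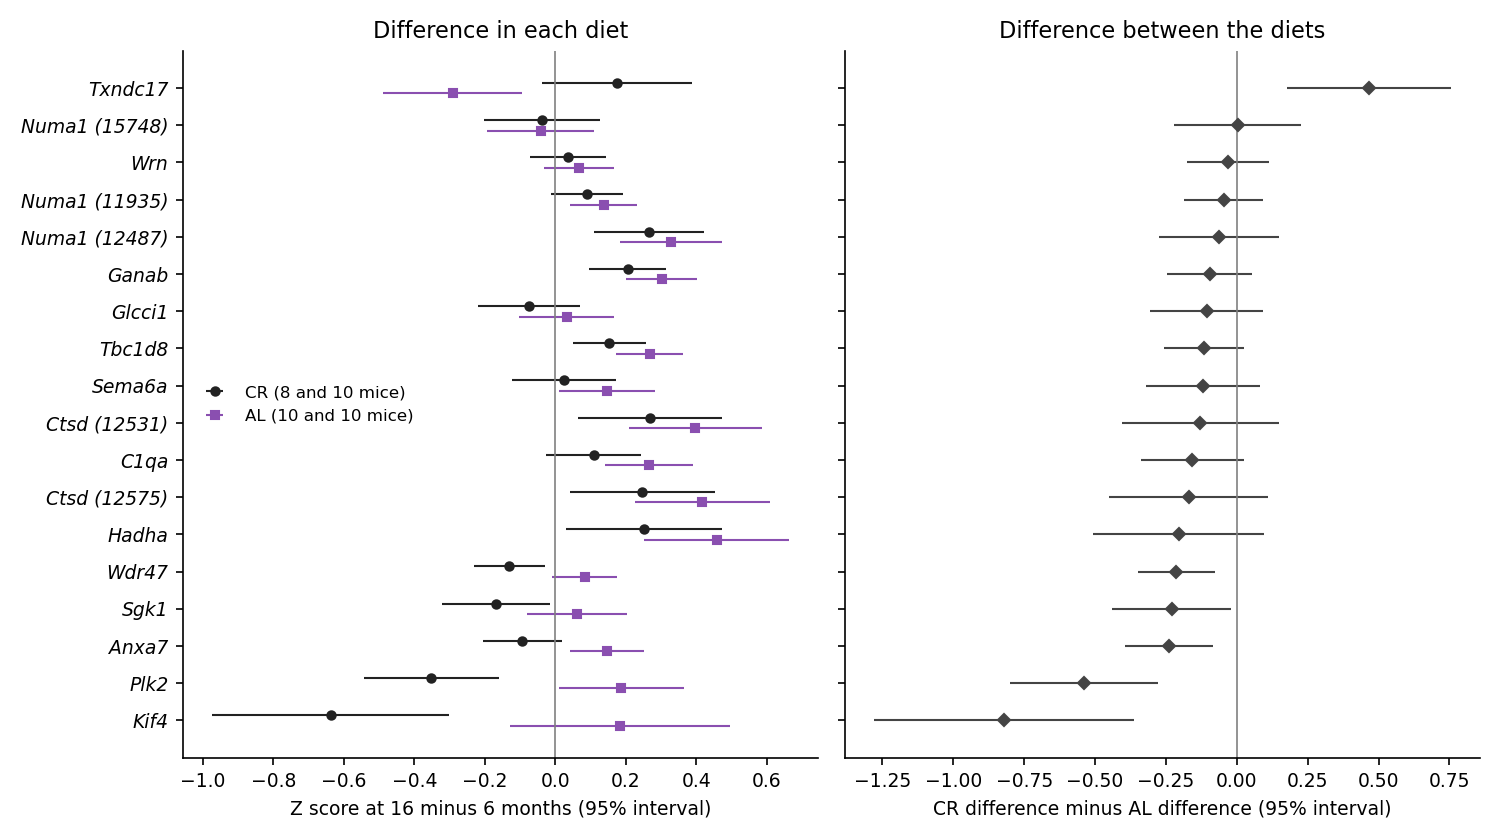
Left, difference in Z score between 16 and 6 months (x axis, with its 95% interval) in CR mice (circles) and AL mice (squares) for 18 features (y axis). Right, the CR difference minus the AL difference with its 95% interval. Plk2 lies at -0.352 and 0.187 on the left and at -0.539 on the right, and the interval of Ganab on the right includes 0.

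The sexes were compared by the male step minus the female step within CR mice. No feature passed, with 0 of 8448 called (0%) and a smallest adjusted p of 1 in limma, while at an unadjusted p under 0.05 there were 90 (1.07%), 20 without arrays 31 and 32 (0.237%) and 48 in the fit with the run (0.568%). The smallest p was that of Dock4, an activator of small GTPases, at -0.245 in males and 0.106 in females. Nim1k, a protein kinase, had 0.149 and -0.322, Anapc1 of the anaphase-promoting complex 0.18 and -0.168, and Tmem176a, a membrane protein, 0.181 and -0.074. For 2900052L18Rik they were 0.802 and 0.08. There were 3 young males, 1 of them array 31. Without arrays 31 and 32 the male and female steps were -0.137 and 0.103 for Dock4, 0.086 and -0.293 for Nim1k, 0.11 and -0.134 for Anapc1, 0.084 and -0.045 for Tmem176a, and 0.252 and -0.002 for 2900052L18Rik. In this fit the male steps rest on 2 young males, arrays 17 and 50, whose values for 2900052L18Rik were -0.67 and -1.11. The difference between the sexes then kept an unadjusted p under 0.05 for Dock4 (0.0189) and Nim1k (0.0137) in limma, and not for the other 3. Ganab differed by 0.161 in males and 0.25 in females, and Plk2 by -0.307 and -0.398.

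The differences were related to the order of the features. The difference of a feature correlated with that of the feature 22 numbers away at r = 0.403 over 8426 pairs, which share the same 18 arrays. For adjacent features it was 0.217, and at 8 to 14 numbers apart it lay between -0.0513 and 0.00986. Without arrays 31 and 32 it was 0.318 at 22 numbers apart, 0.389 at 2 and 0.000756 for adjacent features, and after each value was centred on the residuals of neighbouring features it was 0.0355 at 22. Among the named features, Spns1, Gstcd, Slc6a8 and 2900052L18Rik have the numbers 11290, 11311, 11312 and 11314, and the feature with the smallest p has the number 11333. Tbc1d8, Hadha, Numa1, Ganab and both Ctsd features (11211, 12443, 12487, 12509, 12531 and 12575) share 1 of the 22 positions in which the signal repeats along the number. They are the 6 features called in the AL step without arrays 31 to 33. Kif4, Plk2, Zfp652 and Rab33b (16455, 14365, 16587 and 10119), the largest of the named falls, share another of these positions. After centring on neighbours, the difference was 0.136 for Ganab, 0.223 for Hadha, 0.188 and 0.166 for Ctsd, 0.109 for Slc6a8, -0.291 for Plk2 and -0.26 for Sgk1. After this centring 0 features were called, and 797 had an unadjusted p under 0.05 (9.43%). With the run added and arrays 31 to 33 left out, 0 were called and 309 had an unadjusted p under 0.05 (3.66%).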

How the data were processed

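The authors hybridized radioactively labelled cDNA to filters, scanned imaging screens, extracted intensities with ArrayPro and transformed each array to a Z score, which is the deposited score. For background handling and the log base, the methods and labels used here give nothing. Values compared are in Z units and not folds, and a shift shared by most features is invisible to them. Precision is limited by how many arrays there are. All 65 columns had a sample. Of 8448 features, 4875 had 1 gene symbol in the platform annotation (symbols updated through RefSeq), 224 had several and 3349 had none.

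The scores were fitted in limma (version 3.58.1, R 4.3.3) as 14 means of age class, diet and sex over all 65 arrays, with the sexes weighted equally, so that a difference need not equal that of the plain group means. P-values were adjusted by Benjamini-Hochberg over all features. Samples were grouped by the labels, and each mouse was a separate animal. The script was tested on simulated data. Named genes were the 10 features with 1 symbol and the smallest p in each direction, the 5 with the smallest p for each difference between steps, up to 4 members of each list with the smallest p, and genes from earlier results. The comparison, the lists and the named genes were chosen with earlier results of these data known. The rule of the study was run as an alternative (mean Z above 0, z-ratio of at least 1.5 and an unadjusted p under 0.05), without its ANOVA. C1qb, C1qc and Gja1 were named after their values were seen.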

Additional observations from a re-analysis of the deposited data

Results flagged for a closer look

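For 33 named features, the gap between the most extreme mouse and its nearest neighbour was set against the range of its age group, which made 66 groups. In 7 of them the gap was past the 95% limit of Dixon's test, where chance gives about 1 in 20. In mice of 6 months, array 31 stood apart for 2900052L18Rik at -2.54 (next -1.11), for Slc6a8 at -0.98 (next -0.57) and for Rpl22l1 at -0.77 (next -0.52). Array 32 stood apart for C1qa at -1.04 (next -0.79) and for Wrn at -0.18 (next 0.09). In mice of 16 months, array 47, a male, stood apart for Rab33b at -5.1 (next -3.62), and array 61, a male, for Wrn at -0.12 (next 0.14). Of the 7 values, 5 belonged to the arrays that also stood apart over all features.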

How the results depend on the processing

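The count of called features between 6 and 16 months in CR mice was 0 without arrays 31 and 32, without arrays 31 to 33, with the run as a covariate, with and without arrays 31 to 33, in the first run, in the 18 mice alone, with the sexes pooled, with array weights, after quantile normalization, after centring on 22 positions, with the round as a covariate and above a mean Z of 0. It was also 0 after centring on neighbouring features and without arrays 31, 32, 33 and 50, which were chosen after seeing the data. It was 3379 (1742 higher) in the second run only, where the young CR mice are arrays 31 and 32. By the rule of the study it was 60 (35 higher), and 46 (6 higher) without arrays 31 and 32, also chosen after seeing the data. Leaving out 1 mouse gave 0 to 9 calls. The 9, of which 8 were higher, came without 6-month CR male replicate 1, which leaves array 31 and 1 other young male, and Slc6a8, Spns1, Rplp0, Gstcd, 2900052L18Rik and Uchl1 were among them. Counts at an unadjusted p under 0.05 then ran from 105 (without male replicate 2, array 31) to 1157, and were 230 without female replicate 3, array 32. Other counts at that p more than 1.5 times from 583 were 87 without arrays 31 and 32, 170 without arrays 31 to 33, 903 with the run as a covariate and all arrays, 293 with the run and without arrays 31 to 33, 203 in the first run, 129 with array weights, 306 above a mean Z of 0 (fewer features), 309 after centring on neighbours with the run and without arrays 31 to 33, and 135 without the 4 arrays. The sex and diet differences gave 0 calls under all 4 alternatives.

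Of 33 single features 3 changed sign. For Sema6a the values were -0.025 without arrays 31 and 32 and without arrays 31 to 33, -0.0639 when the run was a covariate and arrays 31 to 33 were left out, -0.0592 in the first run, -0.0283 with array weights, -0.0875 without arrays 31, 32, 33 and 50, and from -0.000833 (without female replicate 3 of 6 months) to 0.068 when 1 mouse was left out. For Wrn they were, in the same order, -0.0235 in both of the first, -0.0181, -0.0338, -0.0226, -0.0185 and a range of -0.00517 to 0.0698, with -0.00379 after centring on positions, -0.0088 on neighbours and -0.0597 on neighbours with the run and without arrays 31 to 33. For Numa1 feature 15748 they were 0.049 with the run and without arrays 31 to 33, 0.0654 in the first run, 0.0083 after centring on positions and 0.0255 without the 4 arrays. The cause was not tested. No paired analysis was possible because the labels carry no replicate numbers, and those used here follow the accession order. With the round of arrays as a covariate 636 features had an unadjusted p under 0.05.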
